A study of Mus musculus with 6 samples.

Results

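The 10 genes described here are Trp53, which encodes the transcription factor p53, and 9 genes that p53 is known to activate, namely Cdkn1a, Mdm2, Ccng1, Bax, Bbc3, Gadd45a, Sesn1, Sesn2 and Phlda3. They were found by gene symbol among the 56941 genes of the count table, and 10 of 10 had enough reads to be tested together with 32149 genes in all. The group was chosen by a measured value, the level of Ccng1, which had been seen to be higher in the Dab2-cKO columns (named for the floxed alleles) of these same libraries. The values of Ccng1 are therefore described with no test, and the other 9 genes were read in a test over the whole table.

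Total RNA was sequenced from hair follicle stem cells (HFSCs) that had been sorted by FACS for CD34 and α6-integrin from trypsin-treated dorsal skin of female mice of the strain B6;129S4-Dab2tm1Cpr/J at postnatal day 68 (PD68). Both groups carried Dab2 fl/fl alleles and received tamoxifen at 75 mg/kg by intraperitoneal injection on 5 consecutive days. The 3 WT libraries came from mice without the K14 Cre transgene and the 3 Dab2-cKO libraries from mice that carried it (K14CreER+/-), so that recombination depended on a promoter active in basal keratinocytes in general and not in HFSCs alone. Whether a replicate pooled animals is not given in the sources used here, and p-values measure the spread between these 3 and 3 libraries.

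p53 is a tetrameric transcription factor that is made continuously and kept low by the ubiquitin ligase Mdm2, itself a p53 target. DNA damage and other stresses stabilize the protein rather than raise its mRNA, and p53 then activates genes for cell cycle arrest, apoptosis, DNA repair and metabolic control. In skin, p53 is known for the response to ultraviolet light and for limiting keratinocyte growth, and its relative p63 maintains stratified epithelia.

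Because p53 acts through its DNA response element, sequences near the starts of the member genes were searched and the matches are shown to place the genes beside a possible binding sequence. The element is a pair of adjacent 10-base units. Each unit holds a 4-base core that begins with C and ends with G, with A or T between them, and the flanks are purines before the core and pyrimidines after it. In a window of 3000 bases on each side of the start of the canonical transcript (GRCm39, GENCODE annotation), matches with no spacer, both core C and G bases intact and at most 2 mismatches were found at 3 of 10 members. The element is its own reverse complement, so 1 search covers both strands. The 4 matches follow, read on the strand of the gene, with the 4-base cores in capitals.
Cdkn1a, chr17:29309902-29309921, plus strand, 2836 bases before the start, 1 mismatch: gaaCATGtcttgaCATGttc
Ccng1, chr11:40646289-40646308, minus strand, 170 bases before the start, 1 mismatch: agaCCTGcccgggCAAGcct
Ccng1, chr11:40645763-40645782, minus strand, 357 bases after the start, 1 mismatch: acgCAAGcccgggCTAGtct
Bax, chr7:45115998-45116017, minus strand, 309 bases after the start, 2 mismatches: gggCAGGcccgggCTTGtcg

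Such a match stood in the same window of 1271 of 21664 protein-coding genes, or 5.87%. Of 36 further p53 target genes listed for comparison, 10 held a match, among them Eda2r, Fas, Ptprv and Rps27l. In a narrower window from 250 bases before the start to 50 after it, matches were found at 63 of 21667 genes (0.291%), and Ccng1 was the 1 member among them. A match describes letters in the window and does not show binding, which was not measured. Elements with a spacer or farther from the start were not searched, so no match at Mdm2, Phlda3 and the others says only that these letters are not in this window.

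The libraries held 7040032 to 9518564 counts in WT and 9374373 to 11696457 in Dab2-cKO, and 3 counts, the limit that a count of 0 allows, corresponded to 2.56e-05% to 4.26e-05% of a library. The mitochondrial share was 12.99% to 14.45% in WT and 19.1% to 20.3% in Dab2-cKO. Normalized counts below are counts divided by the library size after TMM scaling, brought to the mean library of 9377113 counts. The targeted gene went against its label. Dab2, which encodes an endocytic adaptor and tumor suppressor, had counts of 304, 368 and 362 in WT and 1504, 1130 and 1259 in Dab2-cKO, a log2 fold change of 2.08 (SE 0.08, adjusted p = 3.04e-34 by edgeR's quasi-likelihood test with Benjamini-Hochberg adjustment). Gene counts do not show which exons the reads came from, so they do not check the recombination itself. The groups below are accordingly the libraries labelled WT and Dab2-cKO, and every direction depends on that labelling.

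Cell markers also moved with the label. Of the 12 markers of bulge HFSCs, 7 were higher and 3 lower in Dab2-cKO, and their summed normalized counts were 21100 to 24190 in WT and 35930 to 36780 in Dab2-cKO. The largest terms of that sum were the keratin genes Krt14 (6378 in WT, 11470 in Dab2-cKO), Krt5 (6918, 10600) and Krt15 (3556, 6351). The promoter of Krt14 is active in basal keratinocytes in general, so the sum is not a measure of bulge cells alone. The higher markers besides these keratin genes were Cd34 (510 in WT, 1780 in Dab2-cKO), Itga6 (960, 1409), Nfatc1 (230, 575) and Postn (1867, 2946). Cd34 and Itga6 encode the proteins used for sorting. The 3 lower markers were Sox9 (966 in WT, 355 in Dab2-cKO), Lhx2 (348, 129) and Lgr5 (415, 167). Summed fibroblast markers were 99660 to 120800 in WT and 349100 to 368900 in Dab2-cKO (6 of 6 higher), and summed skeletal muscle markers were 48590 to 56540 and 220800 to 223200 (6 of 6 higher). Endothelial (924 to 1093 and 3631 to 3677, 6 of 6 higher) and immune markers (1533 to 1686 and 6776 to 7038, 6 of 8 higher) were also higher, as were those of differentiated epidermis (9531 to 11080 and 39120 to 39720, 5 of 6 higher and 1 lower). In the opposite direction, markers of hair shaft, inner root sheath and matrix summed to 228300 to 274400 in WT and 3142 to 3179 in Dab2-cKO (11 of 11 lower), melanocyte markers to 2949 to 3278 and 1149 to 1197 (5 of 6 lower), and proliferation markers to 11970 to 13270 and 3934 to 4118 (10 of 10 lower). Genes known to respond to tissue dissociation summed to 3911 to 4410 in WT and 12140 to 12360 in Dab2-cKO, with 10 of 12 higher. No marker was at 0 in all libraries of a group. The part of these cell types in the differences below was not tested, and in bulk RNA fewer cells of a type and less RNA per cell cannot be told apart.

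To ask whether the p53 targets moved together, each gene was compared between the libraries labelled Dab2-cKO and WT. Of the 9 members other than Ccng1, 4 rose in Dab2-cKO (Mdm2, Bbc3, Sesn1 and Phlda3), 1 fell (Gadd45a), and 4 did not pass an adjusted p of 0.05 (Trp53, Cdkn1a, Bax and Sesn2). Over all genes tested 28.2% were called, 16.8% higher and 11.5% lower. Among the 14777 genes whose normalized counts averaged 50 or more, 52.5% were called, against 4 of the 8 members of that class, which leaves out Bbc3. The split depended on scaling: under the upper quartile and under library size alone, 1 was called higher (Phlda3) and 3 lower (Trp53, Cdkn1a and Gadd45a). In a separate fit of the genes whose raw counts averaged at least 50, 3 members were called higher and 3 lower. That fit called 8523 of 14801 genes. Calls numbered 2 with DESeq2, 2 without WT replicate 3 and 3 without Dab2-cKO replicate 2. The groups did not overlap at 6 of the 9 members and at 38.3% of all genes tested. The median log2 fold change of the 9 was 0.12, beside -0.02 over all genes tested. The 38.3% and the -0.02 cover genes of every level and, unlike the 52.5%, were not matched to the members, so no excess is read from them.

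**Figure D1:**
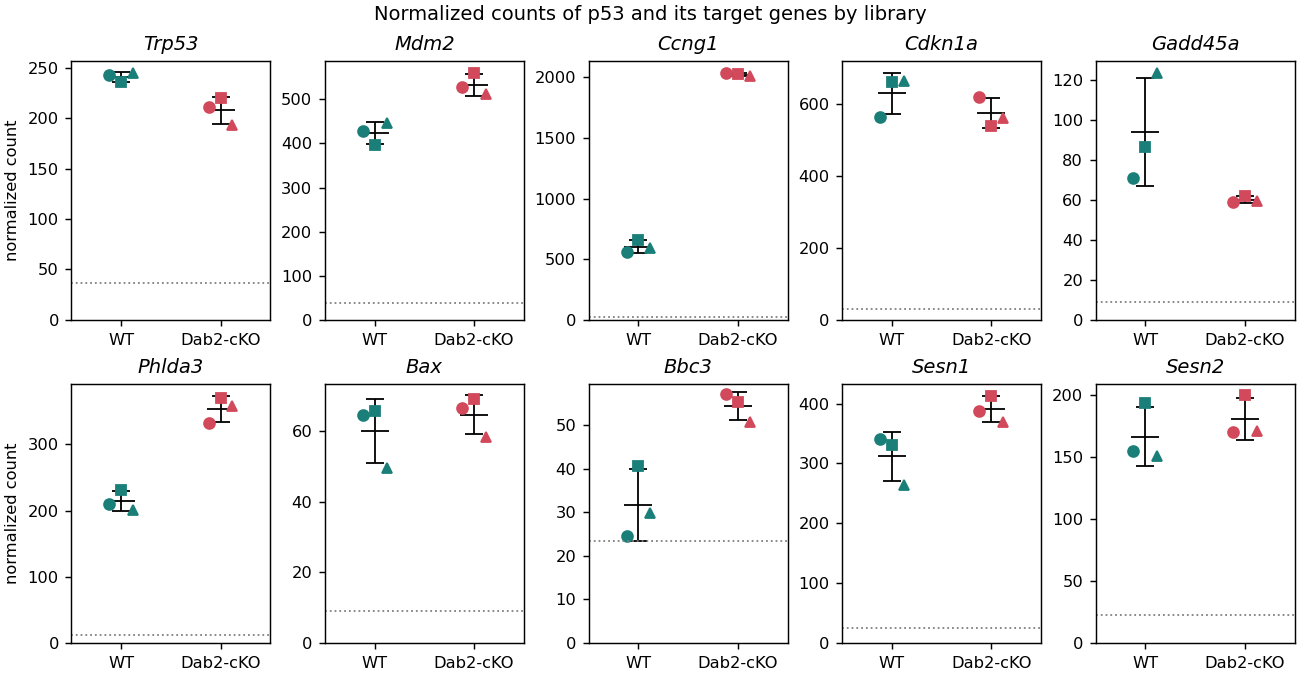
Normalized counts of the 10 genes, 1 panel a gene, each with a vertical axis starting at 0. Points are single libraries of the groups labelled WT and Dab2-cKO (circle, square and triangle for replicates 1, 2 and 3), bars are means with SD (n = 3), and the dotted line is the count that evenly spread background reads would give a gene of that length; Ccng1 stands at 557 to 662 in WT and at 2011 to 2031 in Dab2-cKO, and Gadd45a in WT spreads from 71.3 to 124.

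Trp53 itself (ENSMUSG00000059552, chr11:69469669-69482701, plus strand, GRCm39) had normalized counts of 243, 236 and 245 in WT and 211, 220 and 193 in Dab2-cKO. All 3 Dab2-cKO libraries lay below all 3 WT libraries. The means were 241 ± 4.98 and 208 ± 13.5 (SD, n = 3), a log2 fold change of -0.21 (95% interval -0.45 to 0.02, adjusted p = 0.189 by edgeR), so the difference was not called with TMM scaling. It was called under upper-quartile scaling (-0.36, edgeR adjusted p = 0.0104), when library size alone was used (-0.64, edgeR adjusted p = 2.46e-06), and when only genes with a mean count of at least 50 were kept (-0.30, edgeR adjusted p = 0.0242). Of the exon bases, 5.68% overlap genes on the opposite strand, among them Wrap53, which fell in Dab2-cKO (74.0 ± 8.33 and 46.5 ± 2.93, log2 fold change -0.67, edgeR adjusted p = 0.0152). The processed pseudogene Trp53-ps, which could share reads with Trp53, held 1 to 18 counts a library beside 175 to 287 for Trp53.

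Mdm2 (ENSMUSG00000020184, chr10:117524780-117546730, minus strand) encodes the ubiquitin ligase that marks p53 for degradation. Its normalized counts were 428, 397 and 445 in WT and 528, 560 and 511 in Dab2-cKO. Every Dab2-cKO library exceeded every WT library, the means were 423 ± 24.2 and 533 ± 25.04 (SD, n = 3), and Mdm2 rose 1.26-fold (log2 0.33, SE 0.09, edgeR adjusted p = 0.00194). The rise depended on how the libraries were scaled, with 0.19 and edgeR adjusted p = 0.0745 under upper-quartile scaling and -0.10 with library size only (edgeR adjusted p = 0.353), where the median of all genes was -0.45.

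Ccng1 (ENSMUSG00000020326, chr11:40639377-40646148, minus strand) encodes cyclin G1, which recruits protein phosphatase 2A to Mdm2. It was the member whose difference chose the group. Raw counts were 500, 733 and 690 in WT and 2130, 1760 and 1822 in Dab2-cKO, and normalized counts were 557, 662 and 590 against 2031, 2025 and 2011. The Dab2-cKO libraries were nearly level, and the lowest of them was far above the highest WT library. The means of 603 ± 53.7 and 2022 ± 10.4 (SD, n = 3) differed 3.36-fold, a log2 fold change of 1.74 (SE 0.07). Over 13 alternative fits the log2 fold change lay between 1.32 and 1.83. Since this difference chose the group, its size and its range over refits of the same libraries are a description only. The summed fibroblast, skeletal muscle, endothelial and immune markers and the dissociation genes were higher in the same libraries, and their part in the level of Ccng1 was not tested.

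Cdkn1a (ENSMUSG00000023067, chr17:29309936-29319701, plus strand) encodes the cyclin-dependent kinase inhibitor p21, the classical effector of p53 in G1 arrest. Its normalized counts were 563, 660 and 664 in WT and 620, 540 and 562 in Dab2-cKO. The groups overlapped, with means of 629 ± 56.9 and 574 ± 41.4 (SD, n = 3), and the log2 fold change of -0.13 (95% interval -0.30 to 0.03, edgeR adjusted p = 0.268) was not called. It was called lower under upper-quartile scaling (-0.28, edgeR adjusted p = 0.00213), when library size alone was used (-0.56, edgeR adjusted p = 3.43e-10) and among genes with a mean count of at least 50 (-0.22, edgeR adjusted p = 0.0172). Genes on the opposite strand cover 12.5% of the exon bases.

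Gadd45a (ENSMUSG00000036390, chr6:67012070-67014441, minus strand) encodes a small stress protein that acts in arrest and DNA repair. Its normalized counts were 71.3, 86.7 and 124 in WT and 59.1, 62.1 and 59.6 in Dab2-cKO. The groups did not overlap, but WT spread widely, with a coefficient of variation of 28.8% where counting error alone would give 9.92%, against 2.69% in Dab2-cKO. The means were 93.9 ± 27.1 and 60.3 ± 1.62 (SD, n = 3), and Gadd45a fell by 0.65 on the log2 scale (SE 0.20, edgeR adjusted p = 0.00907). The call rested on WT replicate 3, without which the log2 fold change was -0.39 (edgeR adjusted p = 0.283), and DESeq2 gave an adjusted p of 0.0599. Of the exon bases, 55.8% overlap the opposite-strand lncRNA E230016M11Rik, whose level was 65.7 ± 8.87 in WT and 64.6 ± 8.54 in Dab2-cKO (log2 fold change -0.01, edgeR adjusted p = 0.984).

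Phlda3 (ENSMUSG00000041801, chr1:135693809-135697686, plus strand) encodes a pleckstrin-homology protein that competes with Akt for membrane lipids and so restrains Akt. Normalized counts were 209, 231 and 202 in WT and 332, 371 and 358 in Dab2-cKO, so that the lowest Dab2-cKO library stood well above the highest WT library. Phlda3 rose 1.65-fold, from 214 ± 15.3 to 353 ± 19.7 (SD, n = 3; log2 0.72, SE 0.11, edgeR adjusted p = 7.31e-08), and it was called under 13 of 13 alternative fits, with log2 fold changes of 0.30 to 0.79.

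The genes of apoptosis among the members were Bax and Bbc3. Bax (ENSMUSG00000003873, chr7:45111015-45116325, minus strand) encodes a pore-forming protein of the outer mitochondrial membrane. It had low normalized counts of 64.6, 65.9 and 49.6 in WT and 66.8, 69.0 and 58.5 in Dab2-cKO, which overlapped. With means of 60.0 ± 9.08 and 64.8 ± 5.55 (SD, n = 3) and a log2 fold change of 0.12 (95% interval -0.32 to 0.55, edgeR adjusted p = 0.776), the difference was not called. The sign of this difference turned under upper-quartile scaling (-0.03), with scaling by library size alone (-0.31) and without WT replicate 3 (-0.0036). On the same strand, 10.3% of its exon bases are shared with Gm45808, to which 0 counts were assigned in every library.

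Bbc3 (ENSMUSG00000002083, chr7:16042318-16052130, plus strand) encodes Puma, a BH3-only protein that triggers apoptosis. Raw counts were only 22, 45 and 35 in WT and 60, 48 and 46 in Dab2-cKO, and normalized counts were 24.5, 40.6 and 29.9 against 57.2, 55.2 and 50.8. The groups did not overlap, and Bbc3 rose from 31.7 ± 8.21 to 54.4 ± 3.30 (SD, n = 3; log2 0.77, SE 0.26, edgeR adjusted p = 0.0199). Reads spread evenly over the genome, as measured on 1439 chemosensory receptor genes that skin should lack, would give a gene of this exon length 23.5 normalized counts, so the WT level was 1.35 times that background. Bbc3 was not called with DESeq2 (adjusted p = 0.0752), with upper-quartile scaling (0.63, edgeR adjusted p = 0.0656), by library size alone (0.35, edgeR adjusted p = 0.300), without WT replicate 1 (0.63, edgeR adjusted p = 0.101) or 3 (0.73, edgeR adjusted p = 0.0721), or without Dab2-cKO replicate 1 (0.71, edgeR adjusted p = 0.0778) or 2 (0.73, edgeR adjusted p = 0.0611).

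The sestrins are stress proteins that restrain the growth kinase mTORC1. Sesn1 (ENSMUSG00000038332, chr10:41685931-41784423, plus strand) had normalized counts of 341, 330 and 264 in WT and 388, 413 and 370 in Dab2-cKO. All Dab2-cKO libraries exceeded all WT libraries, and Sesn1 rose from 312 ± 41.6 to 390.3 ± 21.8 (SD, n = 3; log2 0.33, SE 0.10, edgeR adjusted p = 0.00965). The call was lost without WT replicate 3 (0.23, edgeR adjusted p = 0.168), without Dab2-cKO replicate 2 (0.26, edgeR adjusted p = 0.0765), with DESeq2 (adjusted p = 0.0504) and with upper-quartile scaling (0.19, edgeR adjusted p = 0.159), and the sign turned with library size only (-0.10). The opposite-strand gene Cep57l1 covers 10.9% of its exon bases.

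Sesn2 (ENSMUSG00000028893, chr4:132219335-132237815, minus strand) had normalized counts of 155, 194 and 151 in WT and 171, 200.2 and 171 in Dab2-cKO. These overlapped, with means of 167 ± 23.8 and 181 ± 16.9 (SD, n = 3). The log2 fold change of 0.11 (95% interval -0.16 to 0.38, edgeR adjusted p = 0.629) was not called, and it was -0.03 when scaled to the upper quartile and -0.31 with library size only.

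**Figure D2:**
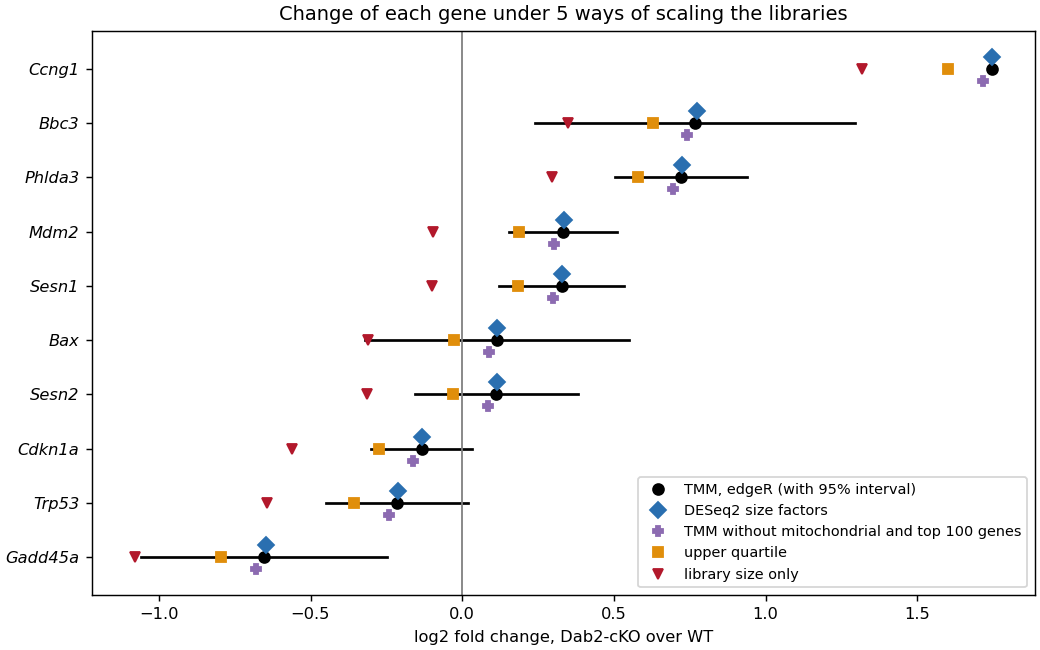
Log2 fold change of each gene, Dab2-cKO over WT, under 5 ways of scaling the libraries, with the 95% interval of the TMM fit as a line (none is drawn for Ccng1, whose difference chose the group). With library size only, the 10 genes shift to lower values, Mdm2 and Sesn1 to -0.10 and Bax and Sesn2 to -0.31, while Ccng1, Phlda3 and Bbc3 stay above 0 and Gadd45a, Trp53 and Cdkn1a below it under all 5.

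Ratios of 2 genes within a library do not depend on scaling. The ratio of Mdm2 to Trp53 counts was 1.76, 1.69 and 1.81 in WT and 2.51, 2.55 and 2.65 in Dab2-cKO, with no overlap. Mdm2 was also higher relative to Mdm4, its partner that binds p53 without strong ligase activity (WT 0.44 ± 0.04, Dab2-cKO 0.61 ± 0.04, SD, n = 3). Phlda3 over Trp53 was 0.89 ± 0.08 and 1.70 ± 0.14, again with no overlap. These ratios show unequal change of the paired genes, not which of them moved. Trp53, Mdm2, Mdm4 and Phlda3 each had no overlap between the groups when read alone, as did 38.3% of all genes tested. How often other pairs of genes separate in these libraries was not computed.

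Other pairs overlapped between the groups. Cdkn1a over Trp53 was 2.61 ± 0.25 in WT and 2.77 ± 0.27 in Dab2-cKO, and Sesn1 over Sesn2 was 1.88 ± 0.28 and 2.17 ± 0.11. Bax over Bcl2, a promoter of apoptosis over an inhibitor, was 0.25 ± 0.05 and 0.28 ± 0.06 (SD, n = 3 each). As a description of the gene that chose the group, Ccng1 over Cdkn1a was 0.96 ± 0.06 in WT and 3.54 ± 0.24 in Dab2-cKO, and Ccng1 over Trp53 was 2.50 ± 0.27 and 9.76 ± 0.61.

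**Figure D3:**
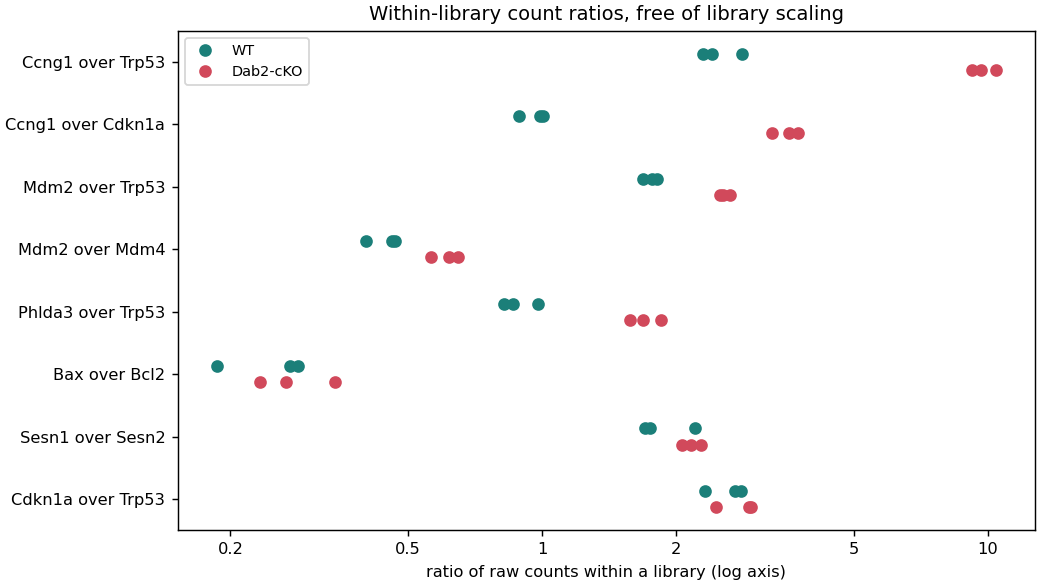
Ratio of the raw counts of 2 genes within each library, on a log axis, for the groups labelled WT and Dab2-cKO (1 point a library). Mdm2 over Trp53 runs from 1.69 to 1.81 in WT and from 2.51 to 2.65 in Dab2-cKO, whereas Cdkn1a over Trp53, Bax over Bcl2 and Sesn1 over Sesn2 overlap.

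Levels between genes were compared as normalized counts per kb of exon. In WT, the order from the top was Ccng1 (137 ± 12.2), Cdkn1a (104 ± 9.42), Phlda3 (82.7 ± 5.91), Sesn1 (61.8 ± 8.26), Mdm2 (54.9 ± 3.15), Gadd45a (52.95 ± 15.3), Sesn2 (36.7 ± 5.24), Trp53 (32.7 ± 0.67), Bax (32.3 ± 4.89) and Bbc3 (6.61 ± 1.71), each per kb with SD and n = 3. Sesn1, Mdm2 and Gadd45a differed by less than their spread, as did Sesn2, Trp53 and Bax. In Dab2-cKO, Ccng1 stood at 459.7 ± 2.36 per kb, followed by Phlda3 (136.5 ± 7.60), Cdkn1a (94.9 ± 6.85), Sesn1 (77.4 ± 4.32) and Mdm2 (69.2 ± 3.25). Sesn2 (39.8 ± 3.73), Bax (34.9 ± 2.99), Gadd45a (34.0 ± 0.91), Trp53 (28.2 ± 1.84) and Bbc3 (11.4 ± 0.69) came below them.

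Some places in this order were the same in all libraries. Ccng1 ranked 1, Mdm2 5 and Bbc3 10 in 6 of 6 libraries, whereas Cdkn1a and Phlda3 held ranks 2 and 3 in WT and changed places in Dab2-cKO. The receptor genes used for background had a median of 4.905 and a 95th percentile of 11.6 per kb, so the mean of Bbc3 lay under that percentile in both groups and the other 9 genes lay above it. Without Ccng1, whose level chose the group, the 9 genes together took 0.0262% to 0.0268% of the raw counts in WT and 0.0213% to 0.0231% in Dab2-cKO. With Ccng1 the shares were 0.0339% to 0.0340% and 0.0397% to 0.0419%. These are shares of library size, with no TMM scaling, and their direction turned on Ccng1. The TMM factors were 1.107 to 1.211 in WT and 0.847 to 0.876 in Dab2-cKO. On TMM-normalized counts the 9 genes without Ccng1 summed higher in every Dab2-cKO library than in every WT library. The direction of the sum without Ccng1 therefore depended on scaling.

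**Figure D4:**
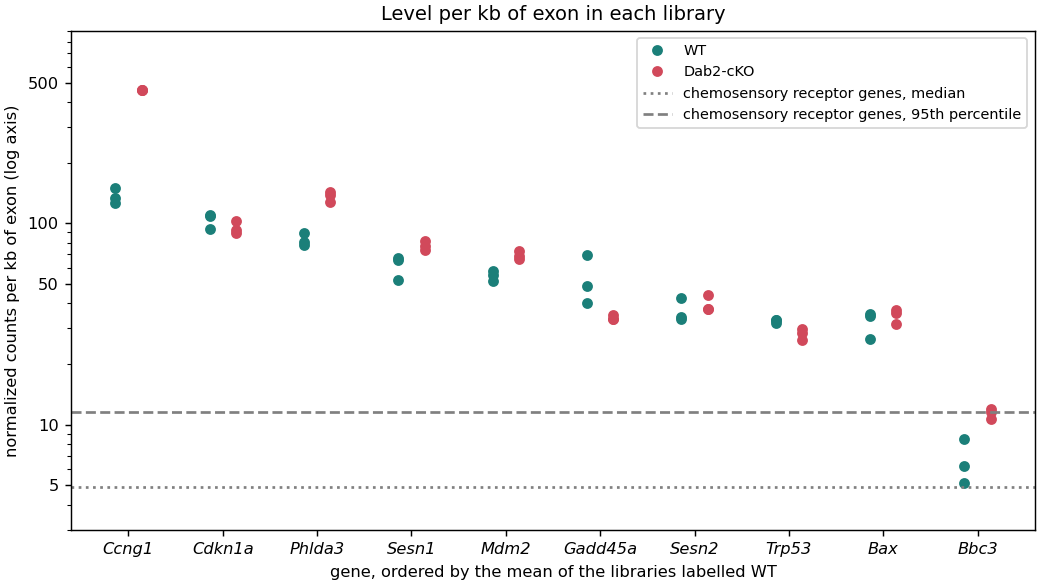
Level of each gene as normalized counts per kb of exon, on a log axis, with points for single libraries of the groups labelled WT and Dab2-cKO and lines for the background of receptor genes. Ccng1 is the highest in 6 of 6 libraries and Bbc3 the lowest, at 6.61 per kb in WT and 11.4 in Dab2-cKO beside a background median of 4.905.

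Around these members, 83 further genes of the p53 pathway were listed by role. Ppm1d, Rchy1, Cop1, Mdm4, Chek1, Bak1, Bok, Bid and Pmaip1 are repeated across lists. The counts by role therefore overlap, while the totals here count each gene once. Of the 80 tested, 22 rose and 30 fell in Dab2-cKO and 28 were not called, so that 65% were called beside 28.2% of all genes tested. The lists were chosen with earlier results of these data known, so this excess is not an independent result about the pathway. Among the genes that fell, 11 came from the list lowered through p21 and the DREAM repressor complex, which are genes of mitosis and S phase. Among genes whose normalized counts averaged 50 or more, 50 of 75 (66.7%) were called beside 52.5%. The counts by role below are to be read beside these same shares of 28.2% and 52.5%, which join both directions. By direction, 16.8% of all genes tested were called higher and 11.5% lower. Of the 14777 genes averaging 50 or more, 4820 were called higher and 2942 lower. The split was 16 higher and 40 lower when scaled to the upper quartile, and 11 and 48 by library size alone. In the separate fit of the genes whose raw counts averaged at least 50, it was 18 and 39, with 8523 of 14801 genes called. The median log2 fold change of the 80 was -0.12 beside -0.02 over all genes tested.

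Trp63, which encodes the p63 protein of basal keratinocytes, fell from 2339 ± 105 to 1620 ± 66.2 (SD, n = 3; log2 -0.53, edgeR adjusted p = 1.72e-09), and Trp73 was 107 in WT and 122 in Dab2-cKO (log2 0.18, edgeR adjusted p = 0.467, -0.24 with library size only). Of 16 regulators tested, 8 fell and 8 were not called (median log2 -0.23). Of the 14777 genes averaging 50 or more, 4820 were called higher and 2942 lower. With edgeR 0 regulators rose, 1 at an unadjusted p under 0.05, and 0 with DESeq2. The damage kinases Atr (490 to 365, edgeR adjusted p = 0.000162) and Chek2 (128 to 88.3, edgeR adjusted p = 0.00943) fell, as did Hipk2, a kinase that phosphorylates p53 (1221 to 845, log2 -0.53, edgeR adjusted p = 6.89e-09), and Sirt1, a deacetylase of p53 (363 to 252, edgeR adjusted p = 0.00012). The call of Chek2 was lost without WT replicate 1 (edgeR adjusted p = 0.0775) or Dab2-cKO replicate 1 (0.0583). Mdm4 was 956 in WT and 875 in Dab2-cKO and was not called (log2 -0.13, edgeR adjusted p = 0.220), but was called lower when scaled to the upper quartile (-0.27, edgeR adjusted p = 0.00032), by library size alone (-0.56, edgeR adjusted p = 1.82e-12) and among genes with a mean count of at least 50 (-0.21, edgeR adjusted p = 0.00224).

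Other p53 targets were called in both directions. Of 10 genes of cell cycle and feedback, 2 rose, 4 fell and 4 were not called (median log2 -0.28). Btg2, an antiproliferative gene, rose from 362 to 743 (log2 1.04, edgeR adjusted p = 3.05e-17). Sfn, the 14-3-3 protein of keratinocytes, fell from 4711 to 1775 (log2 -1.41, edgeR adjusted p = 1.68e-26), Plk3 from 302 to 145 (log2 -1.06, edgeR adjusted p = 5.16e-11) and the phosphatase gene Ptprv from 318 to 83.2 (log2 -1.92, edgeR adjusted p = 5.63e-20).

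Of 13 targets that act in cell death, 7 rose, 2 fell and 4 were not called (median log2 0.34). Eda2r, a receptor for ectodysplasin, rose from 59.2 to 156 (log2 1.40, edgeR adjusted p = 3.71e-10), and the death receptor gene Fas from 84.4 to 124 (log2 0.56, edgeR adjusted p = 0.0074). Apaf1, the scaffold of the apoptosome, and Rps27l rose by less (log2 0.42 and 0.40, edgeR adjusted p = 0.00138 and 0.00436), and both were near 0 with library size only (-0.01 and -0.03). Fas was not called without WT replicate 2 or Dab2-cKO replicate 3 (edgeR adjusted p = 0.0606 and 0.0597), when scaled to the upper quartile (0.41, edgeR adjusted p = 0.0596) or by library size alone (0.13, edgeR adjusted p = 0.578). Rps27l was not called without Dab2-cKO replicate 3 (edgeR adjusted p = 0.0675) or when scaled to the upper quartile (0.26, edgeR adjusted p = 0.0768). Of 12 tested targets of repair and metabolism, 6 rose, 1 fell and 5 were not called (median log2 0.59). The epoxide hydrolase gene Ephx1 rose from 259 to 637 (log2 1.30, edgeR adjusted p = 1.99e-19), the autophagy modulator Dram1 from 81.2 to 184 (log2 1.19, edgeR adjusted p = 7.05e-10) and the DNA polymerase gene Polk from 157 to 302 (log2 0.94, edgeR adjusted p = 5.04e-10). Ass1, of arginine synthesis, fell from 565 to 132 (log2 -2.09, edgeR adjusted p = 2.90e-26), and Sco2 was at 0 counts in all libraries.

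Of 11 paralogs of the members, 4 rose, 3 fell and 4 were not called (median log2 -0.13). Gadd45g rose from 116 to 377 (log2 1.69, edgeR adjusted p = 2.62e-19) where Gadd45a fell, and Sesn3, which is not a classical p53 target but is driven by FoxO factors, fell from 904 ± 54.7 to 469 ± 28.2 (SD, n = 3; log2 -0.95, edgeR adjusted p = 1.53e-16) where Sesn1 rose. Ccng2, the paralog of Ccng1, was 212 in WT and 270.2 in Dab2-cKO (log2 0.35, edgeR adjusted p = 0.0188, -0.08 with library size only), and its call was lost without WT replicate 1 (edgeR adjusted p = 0.0968), WT replicate 2 (0.0719) or Dab2-cKO replicate 3 (0.184). It was also lost with DESeq2 (adjusted p = 0.0902), when scaled to the upper quartile (0.20, edgeR adjusted p = 0.189) and among genes with a mean count of at least 50 (0.26, edgeR adjusted p = 0.0591).

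In the Bcl-2 family, to which Bax and Bbc3 belong, 6 of 13 tested genes rose, 1 fell and 6 were not called (median log2 0.34). Beside this, 28.2% of all genes tested and 52.5% of those averaging 50 or more were called. Mcl1, an inhibitor of apoptosis, rose from 1106 to 2288 (log2 1.05, edgeR adjusted p = 5.40e-21). Bcl2l2, another inhibitor, rose from 153 to 203 (log2 0.39, edgeR adjusted p = 0.0187, -0.03 with library size only), and the Bax relative Bok fell from 145 to 98.6 (log2 -0.57, edgeR adjusted p = 0.0042). The call of Bcl2l2 was lost without WT replicate 1 or 3 (edgeR adjusted p = 0.0832 and 0.0518) or Dab2-cKO replicate 2 (0.299), with DESeq2 (adjusted p = 0.0916) and when scaled to the upper quartile (0.25, edgeR adjusted p = 0.149), and that of Bok without WT replicate 3 (0.0821).

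The genes that p53 lowers indirectly, through p21 and the DREAM repressor complex, were lower in 11 of 12 cases with 1 not called (median log2 -1.35). Ccnb2 fell from 170 to 50.7 (log2 -1.74, edgeR adjusted p = 1.19e-13), Bub1 from 171 to 54.3 (log2 -1.65, edgeR adjusted p = 1.43e-12), Ccna2 from 404 to 133 (log2 -1.60, edgeR adjusted p = 7.35e-20) and Ccnb1 from 281 to 103 (log2 -1.44, edgeR adjusted p = 5.15e-15). These are genes of mitosis and S phase. The proliferation markers, with which they share Ccnb1 and Cdk1, fell in 10 of 10 cases in the same libraries, and Cdkn1a itself was not called.

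**Figure D5:**
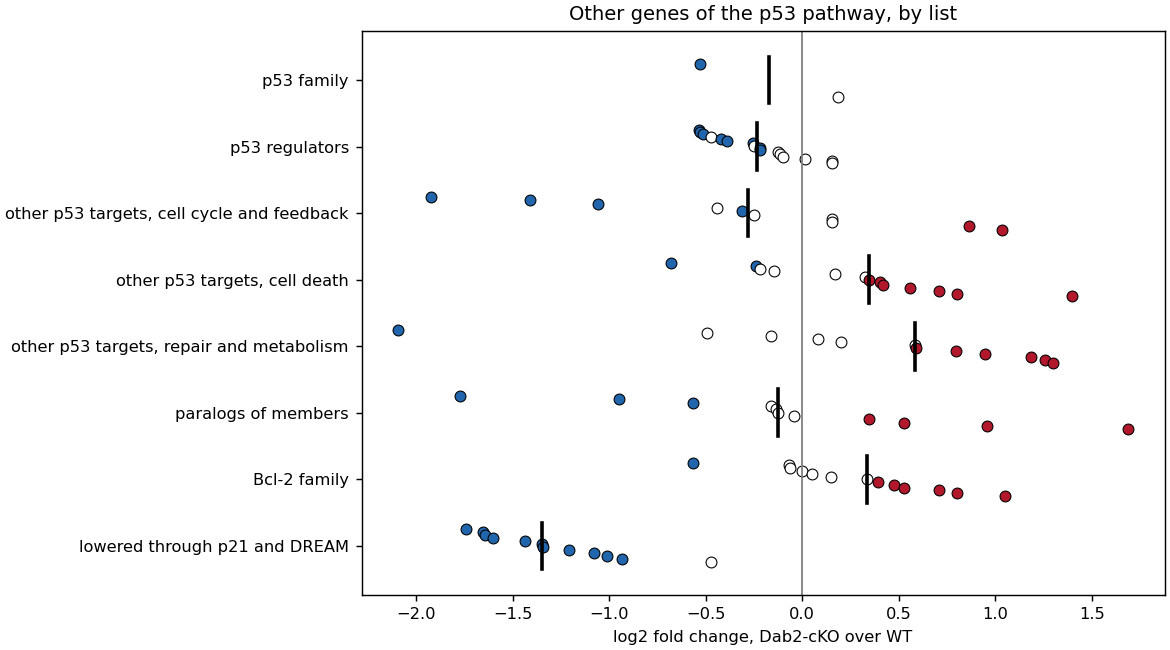
Log2 fold change, Dab2-cKO over WT, of every tested gene in the lists of p53 pathway genes by role, with 1 point a gene (blue, called lower; red, called higher; open, not called) and the median of each list as a black bar. The genes lowered through p21 and DREAM lie lowest, with a median of -1.35, the targets of repair and metabolism have a median of 0.59, and the regulators have a median of -0.23.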

How the data were processed

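The 10 members and the pathway and marker lists were chosen with earlier results of these data known. The authors trimmed reads of total RNA (SMARTer stranded pico kit) with fastp 0.23.4, aligned them to GRCm39 with HISAT2 2.2.1 and counted them per gene with featureCounts 2.0.6 (versions per the submitters' processing notes). Raw counts, not normalized, are what the deposited table gives. The strand setting, treatment of multi-mapped reads, molecular identifiers and annotation release are not given in the sources used here, so the zero-count limits cover counting error only. The separate table of the authors' DESeq2 comparison (fold changes, p-values, scaled counts) was not used.

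The columns named FL-FL were taken as Dab2-cKO from the series title, although both genotypes are floxed. Counts were filtered (filterByExpr), TMM-normalized and compared with edgeR 4.0.16 in R 4.3.3 (robust quasi-likelihood test of genotype, Benjamini-Hochberg adjustment over all 32149 genes, calls under 0.05), and the script was tested on simulated data. Alternatives were DESeq2 1.42.0, other scalings and filters, a replicate block and leaving out each library. Named genes were all members, Dab2, Trp63, Trp73, Mdm4, Sesn3, Ccng2 and at most 4 called genes a list, by size of change, among those averaging 100 normalized counts or more. Wrap53, E230016M11Rik, Trp53-ps, Gm45808, Cep57l1 and Sco2 were named after their values were seen. Exon lengths, overlaps and sequences came from GENCODE M39 on GRCm39.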

Additional observations from a re-analysis of the deposited data

How the results depend on the processing

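Scaling and single libraries set the limits. Genes called numbered 9069 (59.4% of them higher), 13854 with library size only (19.4% higher) and 9842 with upper-quartile scaling (43.5% higher), and the median log2 fold change of all genes moved from -0.02 to -0.45 and -0.17 in these 2 scalings. Of the 9 members, 5 were called, against 2 with DESeq2 (Mdm2 and Phlda3) and 2 to 5 when 1 library was left out, with 2 without WT replicate 3 and 3 without Dab2-cKO replicate 2. Upper-quartile scaling and library size only each called 4, with 1 higher and 3 lower. The sign turned with upper-quartile scaling for Bax (-0.027) and Sesn2 (-0.0299), and with library size only for Mdm2 (-0.10), Bax (-0.31), Sesn1 (-0.10) and Sesn2 (-0.31), values above the median of all genes in that scaling. Leaving out 1 library gave Bax -0.0036 to 0.20. The cause was not tested. The same replicate numbers did not pair the libraries: correlations of their deviations were 0.0231, 0.0117 and 0.0076, although each library correlated best with its own number. With the replicate block 8967 genes, 5 members and 51 of the other pathway genes were called. The lowest counts were those of Bbc3 (22 to 60 a library) and Bax (53 to 73), where counting error alone gives coefficients of variation in WT of 17.2% and 12.6%.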
